A study of Homo sapiens with 6 samples.

Results

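The polyamine pathway around *ODC1* was described in MDA-MB-453 cells after depletion of *DUSP6*. It was taken as 10 genes of the 22807 in the table: *ODC1*, *OAZ1*, *OAZ2*, *AZIN1*, *AMD1*, *SRM*, *SMS*, *SAT1*, *SMOX* and *PAOX*. The members were chosen by gene symbol, with the lower value of *ODC1* in this same contrast already known, so their values are given as a description and no member was tested. MDA-MB-453 is an established HER2+ breast cancer cell line, and 6 libraries of its RNA were compared, 3 from cells transfected with scrambled siRNA (labelled wild type) and 3 from cells transfected with *DUSP6* siRNA (labelled *DUSP6* KD). Both groups were grown in the same serum-supplemented RPMI medium and differ by the target of the siRNA. The knockdown is transient, each group holds 3 different siRNAs, and the sources used here do not tie each siRNA to its library. Nothing in the labels says that the libraries of a group came from separate cultures, so the p-values below measure only the spread between these libraries. That spread may be technical or may come from the different siRNAs of a group, which cannot be told apart here.

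Polyamines are small positively charged molecules that bind nucleic acids and that proliferating cells need. Ornithine decarboxylase, the product of *ODC1*, makes putrescine from ornithine. The enzymes encoded by *SRM* and *SMS* then build spermidine and spermine with an aminopropyl donor that the product of *AMD1* makes from S-adenosylmethionine. Antizymes (*OAZ1*, *OAZ2*) bind ornithine decarboxylase and send it to the proteasome without ubiquitin, and the antizyme inhibitor *AZIN1*, a relative of the decarboxylase with no activity of its own, takes up antizyme. The product of *SAT1* acetylates spermidine and spermine, *PAOX* oxidizes the acetylated forms and *SMOX* oxidizes spermine itself. *ODC1* is a classical target of MYC, which binds the E-box CACGTG. Several of these proteins are regulated through translation, frameshifting and protein turnover, which RNA-seq does not measure.

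The promoter windows of *ODC1* and *SRM* are shown because these were the members whose *DUSP6* siRNA values all lay under their lowest scrambled siRNA value. Each window runs from 250 bases before to 50 bases after a transcription start in RefSeq (GRCh38.p14), on the minus strand, written 5′ to 3′, with CACGTG in capitals. RefSeq gives *ODC1* a pair of start sites, and the window of the upstream one (chr2:10448278-10448577) held no CACGTG. The window of the downstream one held 2, at -29 and 5 bases from that start. In the main transcript of *ODC1* both lie in intron 1, from 286 and 320 bases downstream of the upstream start. The window of *SRM* held 1 CACGTG, at -199 bases from the start.
*ODC1*, chr2:10447963-10448262: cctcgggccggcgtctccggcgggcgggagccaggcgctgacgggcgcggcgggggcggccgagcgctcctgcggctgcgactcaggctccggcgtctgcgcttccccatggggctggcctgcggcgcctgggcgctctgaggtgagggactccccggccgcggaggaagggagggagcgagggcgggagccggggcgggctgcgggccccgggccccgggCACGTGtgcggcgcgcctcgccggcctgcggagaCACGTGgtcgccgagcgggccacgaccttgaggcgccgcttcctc
*SRM*, chr1:11059969-11060268: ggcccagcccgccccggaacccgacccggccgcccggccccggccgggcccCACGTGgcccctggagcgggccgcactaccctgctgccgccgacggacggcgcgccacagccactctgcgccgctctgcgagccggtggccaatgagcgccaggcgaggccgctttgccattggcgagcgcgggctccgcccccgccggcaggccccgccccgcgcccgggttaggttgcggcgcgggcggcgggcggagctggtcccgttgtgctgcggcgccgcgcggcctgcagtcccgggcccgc
CACGTG reads the same on both strands. It was found in 2 of the 7 members that have a window, and in 12.7% of the 10127 tested genes that have one. Counted by window, it was found in 2 of the 10 member windows and in 9.48% of the 14654 windows of tested genes. Over all 35116 windows the share was 7.26%. A match is a run of letters and not a measured binding site, and a part of MYC in these values was not tested. *AMD1*, *OAZ1*, *OAZ2*, *SMS* and *SAT1* had windows without it, and *AZIN1*, *SMOX* and *PAOX* had no window in the table used.

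The deposited values are normalized read counts on a linear scale, with 45546981 to 85729785 reads recovered per library. Counting error is thus small for every member but *SMOX* and, to a lesser extent, *PAOX*, which had 161 to 447 reads per library. *DUSP6* itself fell from 144 ± 55.7 to 33.0 ± 7.68 (SD, n = 3 each; log2 difference -2.05, limma adjusted p = 3.09e-04). The 7 epithelial and HER2+ markers summed, among them *ERBB2*, *GATA3* and *KRT18*, were present in every library, with a total of 3654 to 4978 with scrambled siRNA and 2501 to 2701 with *DUSP6* siRNA. The 3 endothelial markers summed to at most 0.402 and the immune markers to at most 5.64, with *PTPRC* near 0. The fibroblast markers summed to 80.7 to 105 and 162 to 192, nearly all of it *COL1A1*, with *COL1A2* and *COL3A1* near 0. The basal markers summed to 7.86 to 16.1 and 2.29 to 3.21, with *TP63* the highest of them in every library and *KRT5*, *KRT14* and *ACTA2* each under 1. The sums of the epithelial, endothelial, fibroblast and basal lists differed between the groups without overlap, whereas those of the immune list overlapped. In the epithelial list *EPCAM* alone did not fall, with 268 ± 47.2 and 288 ± 11.3 (SD, n = 3) and overlapping groups. The part of these markers in the results below was not tested. No pair of libraries agreed within sampling noise, since the mean chi-square per gene was at least 8.07, with *DUSP6* siRNA replicates 1 and 3 the most alike.

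Among the genes of polyamine synthesis, *ODC1* and *SRM* had lower values with *DUSP6* siRNA, whereas *AMD1* and *SMS* did not. *ODC1* (Entrez gene 4953, chromosome 2 from 10439968 to 10448327 on GRCh38) had normalized values, for replicates 1, 2 and 3, of 125, 72.6 and 126 with scrambled siRNA against 49.96, 43.8 and 53.7 with *DUSP6* siRNA. The groups did not overlap, and scrambled siRNA replicate 2 stood well below the other scrambled libraries. The means were 108 ± 30.6 and 49.2 ± 5.01 (SD, n = 3 each), the second 0.456 times as high as the first. That is a difference of -1.08 on the log2(value + 1) scale (standard error 0.20). Standard errors here and below are limma's moderated ones, which draw the spread of each gene toward that of all genes tested. They can thus be smaller or larger than the gene's own libraries would give. In these bulk libraries a lower share of cells that express a gene and less RNA of it per cell cannot be told apart. When each library was left out in turn, the largest difference, -1.34, came from omitting scrambled siRNA replicate 2 and the smallest, -0.95, from omitting replicate 3 of that group.

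*SRM* (Entrez gene 6723, chromosome 1 from 11054589 to 11060018), the spermidine synthase, had values of 152, 126 and 148 in the scrambled siRNA libraries and 109, 96.4 and 101 in the *DUSP6* siRNA libraries. Here too the groups did not overlap, and replicate 2 was the lowest of each group, as for *ODC1*. The mean was 142 ± 14.1 (SD, n = 3) against 102 ± 6.31 (SD, n = 3), a log2 difference of -0.47 (standard error 0.10). *SMS* (chromosome X from 21940709 to 21994837), which carries out the next step to spermine, had 83.7, 87.7 and 92.2 against 92.7, 90.0 and 95.2. Its groups overlapped, its log2 difference was 0.08 (standard error 0.08), and it varied least of all members, by 4.84% of the mean among the scrambled siRNA libraries and 2.78% among the *DUSP6* siRNA libraries. *AMD1* (chromosome 6 from 110814617 to 110895713), the source of the aminopropyl donor, had values of 113.4, 88.9 and 121.7 against 121.6, 129.9 and 123.0. The lowest *DUSP6* siRNA library thus lay just under the highest scrambled one, and the log2 difference was 0.22 (standard error 0.12). *AMD1*, *SMS*, *SRM* and *OAZ1* have pseudogenes with which reads could be shared, so their values are uncertain to that extent.

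**Figure D1:**
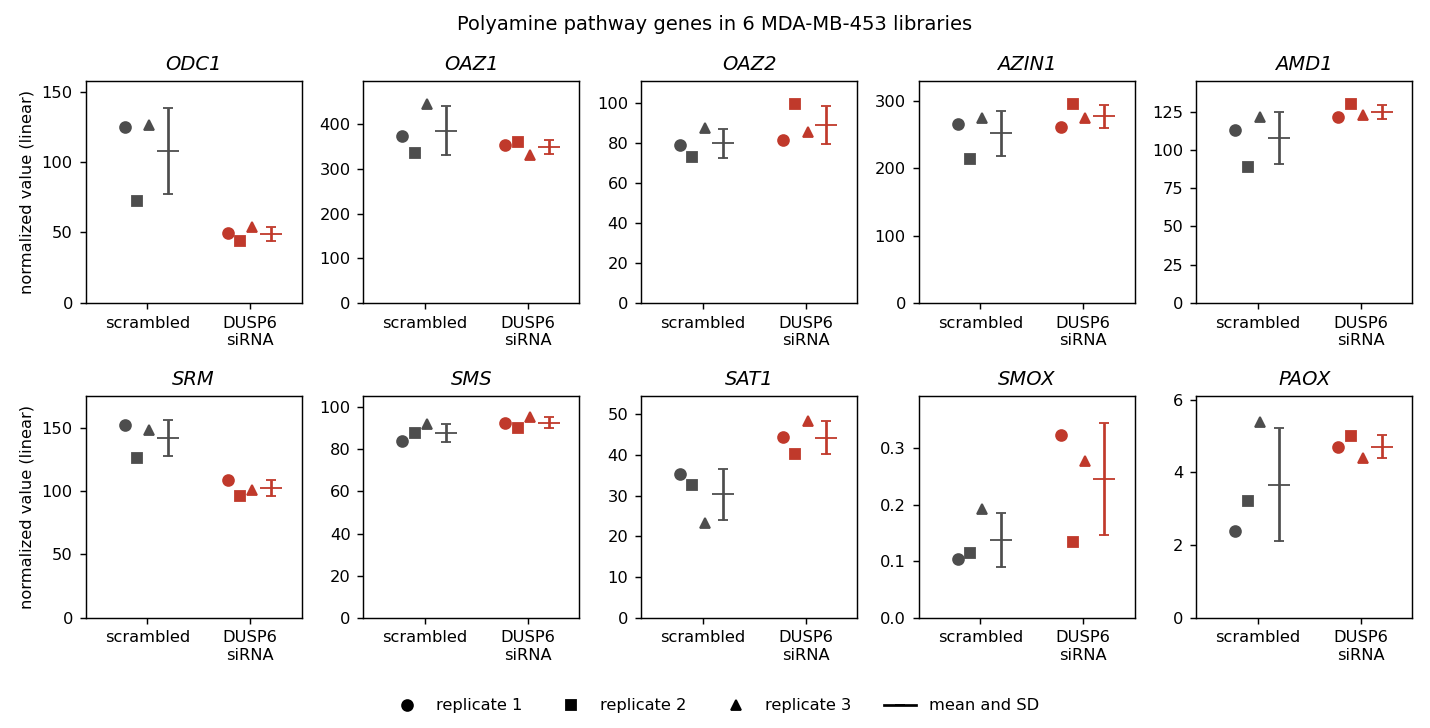
Normalized value (linear axis from 0) of each of the 10 members in the 3 scrambled siRNA libraries (grey) and the 3 *DUSP6* siRNA libraries (red), with marker shape for the replicate number and the mean with its SD beside the points. For *ODC1* and *SRM* all red points lie below all grey ones, for *SAT1* all lie above, and in the other 7 panels the groups overlap.

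The 3 genes that control the decarboxylase after translation had overlapping groups. *OAZ1* (chromosome 19 from 2269486 to 2273488), the major antizyme, had values of 374, 337 and 446 with scrambled siRNA and 354, 360.5 and 330.5 with *DUSP6* siRNA. The log2 difference was -0.14 (standard error 0.11), and exons of *JSRP1* cover 19.6% of the *OAZ1* transcript, so its value is uncertain. *OAZ2* (chromosome 15 from 64687574 to 64703281), a second antizyme, had 78.9, 72.8 and 87.2 against 81.4, 99.3 and 85.4, a log2 difference of 0.15 (standard error 0.11). *AZIN1* (chromosome 8 from 102826302 to 102864200), which counteracts the antizymes, had 266, 214 and 275 against 262, 296 and 274, a log2 difference of 0.14 (standard error 0.11). *DUSP6* siRNA replicate 2, the library with the least *ODC1*, was the highest of the 6 libraries for *OAZ2*, *AZIN1* and *AMD1*.

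On the breakdown side, *SAT1* had higher values with *DUSP6* siRNA and the 2 oxidase genes were little expressed. *SAT1* (Entrez gene 6303, chromosome X from 23783173 to 23786210) had values of 35.2, 32.5 and 23.2 in the scrambled siRNA libraries and 44.3, 40.1 and 48.2 in the *DUSP6* siRNA libraries. The groups did not overlap, although scrambled siRNA replicate 1 came within a few units of *DUSP6* siRNA replicate 2. The mean was 30.3 ± 6.30 (SD, n = 3) against 44.2 ± 4.08 (SD, n = 3), or 1.46 times as high, a log2 difference of 0.55 (standard error 0.15) that ranged from 0.37 to 0.66 when 1 library was left out. *PAOX* (chromosome 10 from 133379262 to 133391694) had values of 2.40, 3.20 and 5.39 against 4.71, 5.01 and 4.39. Scrambled siRNA replicate 3 was the highest of the 6 libraries, so the groups overlapped, and the log2 difference was 0.34 (standard error 0.21). *SMOX* (chromosome 20 from 4148828 to 4187727) lay under the filter of a mean value of 1, with 29 reads in all in the scrambled siRNA libraries and 45 in the *DUSP6* siRNA libraries. Its values were 0.104, 0.115 and 0.193 against 0.324, 0.135 and 0.278, and with so few reads a difference could not be measured well.

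Of the 10 members, 9 passed the filter. Of these 9, 2 (*ODC1* and *SRM*) were without overlap and lower and 1 (*SAT1*) was without overlap and higher. Of all 12862 genes tested, 31.1% were lower and 26.7% higher without overlap. At a limma adjusted p under 0.05, 24.7% of all genes tested were lower and 19.7% higher. That split of 2540 higher and 3179 lower genes became 4794 higher and 1799 lower when reads were scaled by library total alone. The median log2 difference of the 9 members was 0.14, beside -0.01 over all genes tested. As the members were chosen with this contrast in view, nothing is read from these counts.

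**Figure D2:**
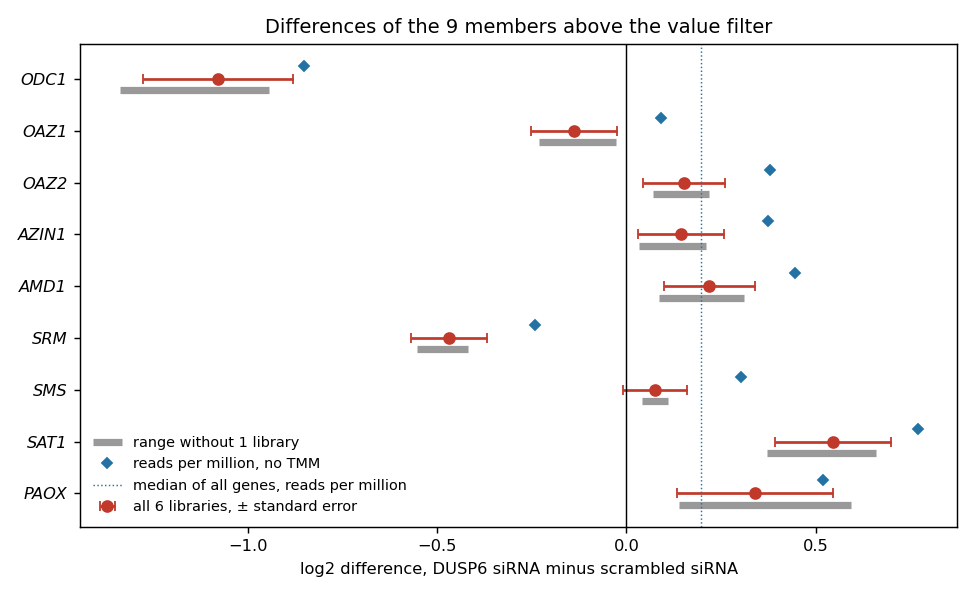
Log2 difference of each of the 9 members above the filter, *DUSP6* siRNA minus scrambled siRNA, on log2(value + 1). Red points with bars give the value over all 6 libraries ± limma's moderated standard error, and grey bars the range when 1 library is left out. Blue diamonds give the value on reads scaled by library total alone, without TMM factors, where the median of all genes (dotted line) is 0.20. *ODC1* is the lowest on each scale, and *OAZ1* lies on either side of 0 depending on the scale.

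The values contain TMM factors, which correct library totals for differences in composition, of 0.881 to 0.968 in the scrambled siRNA libraries and of 1.08 to 1.09 in the *DUSP6* siRNA libraries. When reads were scaled by library total alone, without these factors, the median of all genes tested was 0.20 on the log2 scale. On that scale *ODC1* was at -0.85, *SRM* at -0.24 and *SAT1* at 0.77, against -1.08, -0.47 and 0.55 on the deposited scale. Relative to the median of each scale they were at -1.05, -0.44 and 0.57, and at -1.07, -0.46 and 0.56 on the deposited scale. These scales differ by a constant factor per library, so subtracting the median makes the values nearly equal by construction. *OAZ1* changed sign, with -0.14 on the deposited scale, 0.09 with library totals alone and 0.12 after quantile normalization. *AMD1*, *OAZ2*, *AZIN1*, *SMS* and *PAOX* kept a difference above 0 on each of these scales, the median of ratios included.

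Levels of different genes were compared per kilobase of the main transcript (GENCODE v44, while the authors counted on RefSeq models). With scrambled siRNA the order was *OAZ1* at 336 ± 48.3, *SRM* at 113 ± 11.2, *AZIN1* at 60.0 ± 7.83, *SMS* at 51.6 ± 2.50, *ODC1* at 43.6 ± 12.4, *OAZ2* at 41.2 ± 3.73, *AMD1* at 31.6 ± 4.98, *SAT1* at 28.9 ± 6.00, *PAOX* at 2.00 ± 0.85 and *SMOX* at 0.0634 ± 0.0224 per kilobase (SD, n = 3). *OAZ1* and *SRM* stood apart from each other and from the rest, whereas the libraries overlapped between neighbors from *AZIN1* through *SMS* and *ODC1* to *OAZ2*, and between *AMD1* and *SAT1*. With *DUSP6* siRNA *ODC1* was at 19.9 ± 2.02 per kilobase, in place 8 instead of place 5, and below *AMD1* at 36.5 ± 1.30 without overlap. *SAT1* was at 42.1 ± 3.89 per kilobase, in place 6 instead of place 8, and overlapped only *OAZ2* at 45.9 ± 4.87 among its neighbors.

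**Figure D3:**
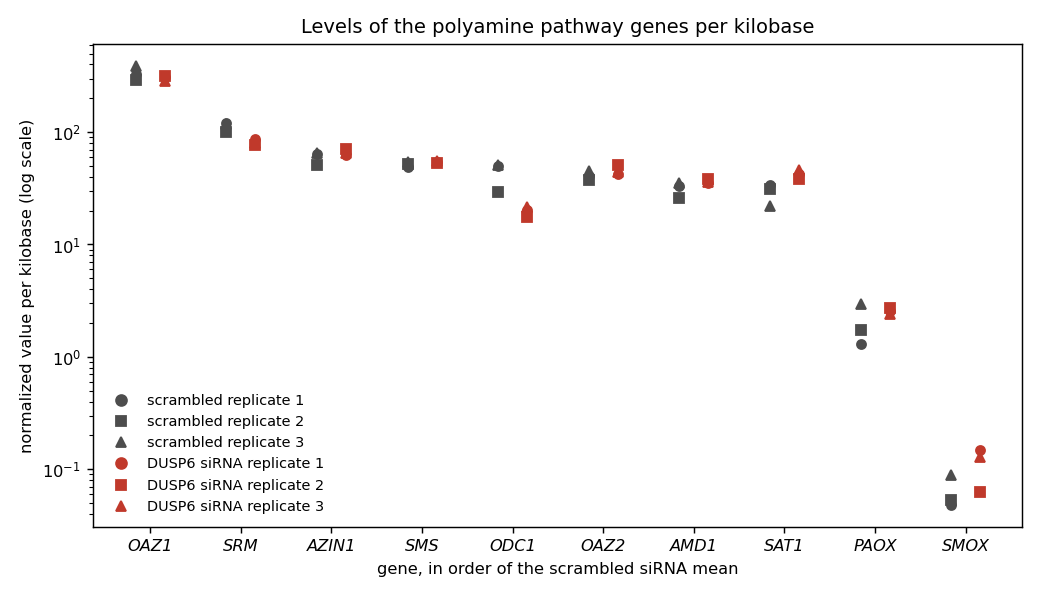
Normalized value per kilobase of transcript (log axis) of the 10 members in each library, ordered by the scrambled siRNA mean. Grey marks scrambled siRNA, red *DUSP6* siRNA, and the marker shape the replicate. *OAZ1* is the most abundant in both groups, *PAOX* and *SMOX* lie far below the others, and the red points of *ODC1* fall under those of *AMD1* and *SAT1*.

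Ratios of members within a library do not depend on the scaling of that library. The *ODC1* to *OAZ1* ratio, decarboxylase to antizyme transcript per kilobase, was 0.155, 0.09998 and 0.131 with scrambled siRNA (replicates 1, 2 and 3) and 0.0654, 0.0564 and 0.0754 with *DUSP6* siRNA. No *DUSP6* siRNA library reached a scrambled one, and the mean ratio was 0.511 times as high. The *ODC1* to *AMD1* ratio, which sets the entry enzyme of putrescine beside that of the aminopropyl donor, was 1.52, 1.13 and 1.43 against 0.568, 0.466 and 0.604. Thus, per kilobase of the main transcript, *ODC1* was the higher of the pair in every scrambled siRNA library and *AMD1* in every *DUSP6* siRNA library. The order with scrambled siRNA depends on the lengths used, 2.476 kilobases for *ODC1* and 3.423 for *AMD1*. Before division by length, scrambled siRNA replicate 2 had 72.6 for *ODC1* and 88.9 for *AMD1*. The *SAT1* to *ODC1* ratio, acetylase to decarboxylase, was 0.666, 1.06 and 0.435 against 2.09, 2.16 and 2.12, on average 2.95 times as high, and was nearly the same in the 3 *DUSP6* siRNA libraries. The *SRM* to *SMS* ratio of the synthases was 2.45, 1.94 and 2.17 against 1.59, 1.45 and 1.43. In all of these ratios the groups did not overlap, as a description of the same contrast by which the members were chosen.

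**Figure D4:**
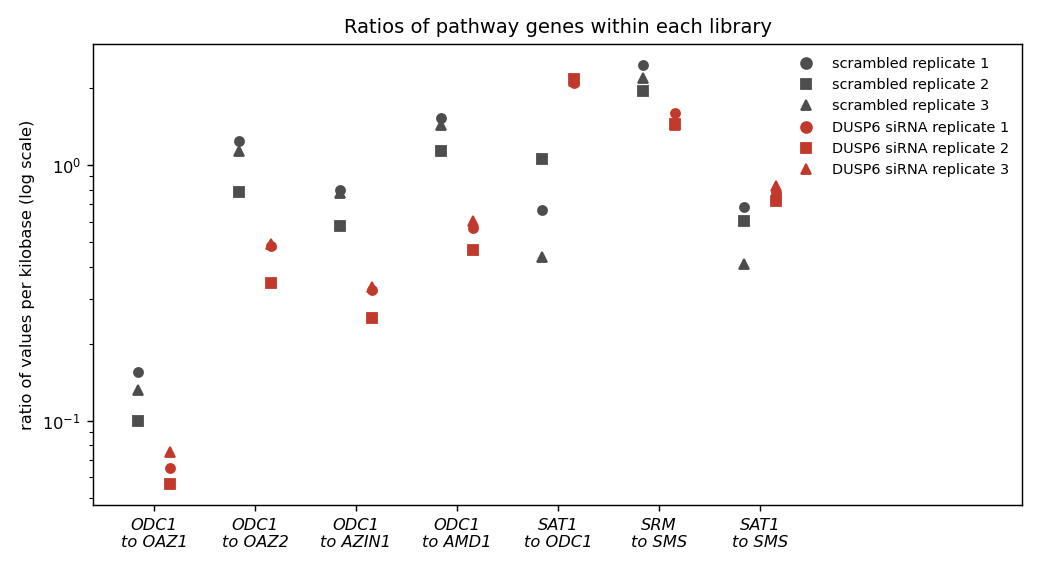
Ratio of the values per kilobase of a pair of members within each library (log axis), with grey for scrambled siRNA, red for *DUSP6* siRNA and the marker shape for the replicate. *ODC1* stands lower against *OAZ1*, *OAZ2*, *AZIN1* and *AMD1* in every red library, with mean ratios of 0.401 to 0.511 times the grey ones, and *SAT1* stands higher against *ODC1*.

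The members also varied within a group. The coefficient of variation of *ODC1* was 28.3% among the scrambled siRNA and 10.2% among the *DUSP6* siRNA libraries, beside medians over all genes tested of 12.7% and 6.04%. Scrambled siRNA replicate 2 was the lowest scrambled library for 6 of the 10 members, namely *ODC1*, *OAZ1*, *OAZ2*, *AZIN1*, *AMD1* and *SRM*, and for 35.5% of all genes tested. Over the 6 libraries, the pattern of *ODC1* was followed most closely by *EEF1AKMT2* and *NUP88*, by *YARS1* (tyrosyl-tRNA synthetase), by *TCP1* (a subunit of the chaperonin that folds actin and tubulin) and by *PABPC3*, with Pearson's r of 0.996 to 0.999 among 9561 genes ranked. These points share the 2 groups and the dip in scrambled siRNA replicate 2. The log2 differences of the 5 genes were smaller than that of *ODC1*, from -0.50 for *YARS1* to -0.43 for *TCP1* and *NUP88*. *PABPC3* is an intronless copy close to other poly(A)-binding protein genes, so its value is uncertain.

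Beyond the members, 47 genes that supply, move or use polyamines were put in 5 lists, of which 29 passed the filter and were tested. The lists, too, were chosen with earlier results of these data known, which limits what the adjusted p-values of their genes can show. With *DUSP6* siRNA 3 rose (*ASL*, *SLC3A2* and *SAT2*), 6 fell (*ASS1*, *AGMAT*, *AHCY*, *ATP13A3*, *DOHH* and *OAZ3*) and 20 were not called. These shares lie below the 19.7% higher and 24.7% lower among all genes tested, and the median log2 difference of the 29 was -0.07 beside -0.01 over all genes tested. Nothing particular to the lists is read from these counts.

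In the list of ornithine and arginine supply 2 of 9 tested genes fell and 1 rose. *ASS1* (Entrez gene 445, chromosome 9 from 130444707 to 130501274), which joins citrulline and aspartate on the way to arginine, had values of 326, 231 and 323 with scrambled siRNA and 69.9, 46.8 and 57.3 with *DUSP6* siRNA. Each *DUSP6* siRNA library was thus far under the lowest scrambled one, and the log2 difference was -2.32 (standard error 0.17, limma adjusted p = 2.16e-05). *ASL*, which releases arginine in the following step, had 24.98, 21.1 and 35.8 against 41.6, 45.7 and 40.7, a log2 difference of 0.66 (standard error 0.17, limma adjusted p = 0.0129). The 2 consecutive enzymes of arginine synthesis thus moved in opposite directions. The call of *ASL* was lost without *DUSP6* siRNA replicate 2 (limma adjusted p = 0.0622). *AGMAT*, named for the agmatinase that would yield putrescine from agmatine, fell from 6.49 ± 1.20 to 2.96 ± 0.50 (SD, n = 3; log2 difference -0.92, limma adjusted p = 0.00145). *ARG2* and *OAT*, which make and consume ornithine, had log2 differences of -0.10 and -0.13 and were not called, and exons of *VTI1B* cover 47.3% of the *ARG2* transcript. *SLC7A1*, a main carrier for arginine and ornithine, had 246 ± 7.33 and 263 ± 12.2 (SD, n = 3) and was not called. *ASS1*, *ASL* and *AHCY* have pseudogenes as well, so that their values are uncertain to that extent.

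Of the 9 tested genes of the methionine cycle and its salvage arm, which recycles the methylthioadenosine left by spermidine and spermine synthesis, *AHCY* alone was called. *AHCY* (chromosome 20 from 34231981 to 34311836), which clears S-adenosylhomocysteine, had values of 389.8, 293 and 410.6 against 217, 221 and 207. The groups did not overlap, and the log2 difference was -0.75 (standard error 0.13, limma adjusted p = 0.00180). *MTAP*, the first enzyme of the salvage arm, had 27.8 ± 7.42 and 31.5 ± 0.46 (SD, n = 3), and *MAT2A*, which makes S-adenosylmethionine, had 352 ± 38.1 and 320.3 ± 26.8 (SD, n = 3). Neither was called. Both have pseudogenes, and exons of *GGCX* cover 20.0% of the *MAT2A* transcript, so their values are uncertain to that extent.

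Among 6 tested transport genes, *ATP13A3* fell and *SLC3A2* rose. *ATP13A3* (chromosome 3 from 194402677 to 194494334), a P-type ATPase of the family that carries polyamines into cells, had values of 355, 199 and 314 with scrambled siRNA and 141, 155 and 145 with *DUSP6* siRNA. Like *ODC1*, it was lowest in replicate 2 of the scrambled siRNA libraries and lower than that in all 3 *DUSP6* siRNA libraries (log2 difference -0.93, standard error 0.19, limma adjusted p = 0.00394). *SLC3A2* (chromosome 11 from 62856109 to 62888860), the heavy chain shared by several amino acid transporters and linked to polyamine export, had 174, 193 and 238 against 391.6, 346 and 412 (log2 difference 0.93, standard error 0.13, limma adjusted p = 5.60e-04). *ATP13A2*, the lysosomal polyamine exporter, had 82.8 ± 14.5 and 68.6 ± 5.13 (SD, n = 3) and was not called.

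Spermidine is also the source of hypusine, the modified lysine of the translation factor eIF5A. *DOHH*, the hydroxylase of the last step, fell from 11.9 ± 0.24 to 8.69 ± 0.97 (SD, n = 3; log2 difference -0.41, limma adjusted p = 0.0157), but the call was lost without *DUSP6* siRNA replicate 2 (limma adjusted p = 0.0583) or 3 (limma adjusted p = 0.0901). *DHPS*, which transfers the spermidine moiety, and *EIF5A* itself had log2 differences of 0.01 and -0.12 and were not called. Exons of *WDR83* cover 8.62% of *DHPS* and those of *GPS2* 11.5% of *EIF5A*, which also has pseudogenes, so these values are uncertain too. Of the paralogues of the members, *OAZ3*, the antizyme known from testis, had 11.1 ± 0.23 and 8.94 ± 0.29 (SD, n = 3; limma adjusted p = 0.0448), a call that was lost in each of the 6 fits without 1 library. Exons of *TDRKH* cover 9.66% of *OAZ3*, so its value is uncertain. *SAT2*, a paralogue of *SAT1*, had 9.28 ± 1.29 and 12.4 ± 0.84 (SD, n = 3; limma adjusted p = 0.0329), a call lost in 5 of the 6. *AZIN2*, the second antizyme inhibitor, was under the filter, with values of 0.506, 0.441 and 0.494 against 0.768, 1.22 and 0.912.

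**Figure D5:**
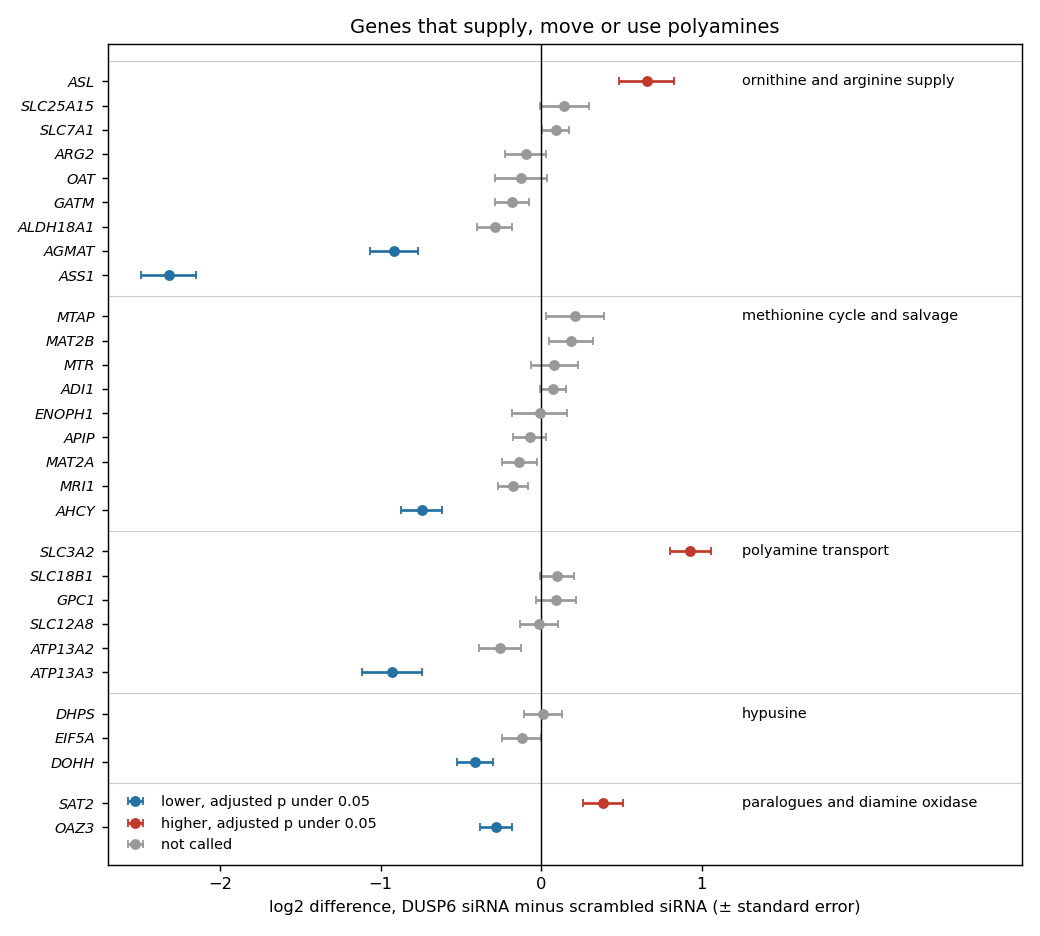
Log2 difference, *DUSP6* siRNA minus scrambled siRNA, with limma's moderated standard error for the 29 tested genes that supply, move or use polyamines, by list. Red marks the 3 genes higher and blue the 6 lower at a limma adjusted p under 0.05, and grey the 20 not called. *ASS1* has the largest decrease, -2.32, and *SLC3A2* the largest increase, 0.93.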

How the data were processed

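RNA-seq of 6 MDA-MB-453 libraries was analysed. The authors used Rsubread to align the reads to hg38 and to assign them to RefSeq genes, and deposited 1 normalized signal value per gene and library. The submitters' processing notes also name bcl2fastq and edgeR. Divided by the value of 1 read in its library, 100% of values came out whole (tolerance 0.01 read), and these steps contain edgeR's TMM factors.

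The values were tested as log2(value + 1) in the 12862 genes with a mean of at least 1, by limma 3.58.1 in R 4.3.3 (eBayes with a trend, Benjamini-Hochberg, adjusted p under 0.05). Fold changes of low genes are understated on this scale. limma and edgeR 4.0.16 were run on simulated data with the same dispersion in both groups and few changed genes. That run checked the code only and gives no error rate for the real data, where the groups differ in spread. The members and lists were chosen with earlier results of these data known. Genes named were the members, *DUSP6*, up to 3 called genes per list and direction with the largest difference, and the 5 genes most correlated with *ODC1* at a mean value of at least 10. Further genes of the lists (*ARG2*, *OAT*, *SLC7A1*, *MTAP*, *MAT2A*, *ATP13A2*, *DHPS*, *EIF5A*, *AZIN2*) were named after their values were seen. A marker of the epithelial list is not reported here and was left out of its sum. Positions and promoters were taken from RefSeq on GRCh38.p14, which held 22359 of the 22807 gene IDs. Transcript lengths, and exons shared with other genes of the table (given above 5% for genes described in the text), were taken from GENCODE v44 on hg38. The library kit was stranded, but Rsubread's default counting, which the methods name, does not use strand. Alternatives were 3 other scalings, a pseudocount of 0.1, a minimum mean of 10 or none, a replicate block, eBayes without a trend, quasi-likelihood tests by edgeR on these reads, and leaving out each library.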

Additional observations from a re-analysis of the deposited data

How the results depend on the processing

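The alternatives were set with earlier results of these data known, and scaling by library total alone, without TMM factors, was added after seeing the data. *ODC1* kept a lower value under all of them, from -1.13 to -0.85 on the log2 scale with all 6 libraries and from -1.34 to -0.95 without 1 library. *DUSP6* was called lower throughout, from -2.13 to -1.83 and from -2.22 to -1.76. The number of linked genes lower ranged from 4 to 7 over all alternatives. The number higher was 3 or 4 with all 6 libraries, except 6 with library totals alone. It ranged from 1 to 5 without 1 library, being 5 without scrambled siRNA replicate 3 and 1 without *DUSP6* siRNA replicate 2. The calls of *ASS1*, *AGMAT*, *AHCY*, *ATP13A3* and *SLC3A2* held under every alternative run. *AGMAT* gave no value with a minimum mean of 10. *DOHH* and *OAZ3* were not called with library totals alone (limma adjusted p = 0.183 and 0.597), and *SAT2* and *OAZ3* were not called with no filter (limma adjusted p = 0.0772 and 0.0967). Of all genes tested, 2540 were called higher and 3179 lower, against 4794 and 1799 with library totals alone, which moved the share of calls that were higher from 44.4% to 72.7% and the median of all genes to 0.20. The cause was not tested. With a mean of at least 10, where fewer genes were tested, 1639 were higher and 2640 lower. Without *DUSP6* siRNA replicate 2 or 3 the number higher was 1535 or 1686.

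Same-numbered libraries deviated from their group means with correlations of 0.01, 0.09 and -0.08, which gives no sign of pairing. These values cannot show whether such libraries shared a culture or batch, as the siRNAs of a group also differ. With a replicate block 3 linked genes were higher and 5 lower, the difference being *OAZ3* (limma adjusted p = 0.103), and *ODC1* was at -1.08. Depth limits *SMOX* and *AZIN2*, and *PAOX* to a lesser extent. No outlier could be tested for with 3 libraries per group.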
